A study of Mus musculus with 4 samples.

Results

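The genes described here deliver fatty acids from blood lipoproteins to the inside of the fat cell. They are *Lpl*, *Gpihbp1*, *Angptl4* and *Vldlr*, which act on lipoproteins at the capillary wall, *Cd36*, *Slc27a1* and *Slc27a4*, which act at the cell membrane, and *Fabp3*, *Fabp4* and *Fabp5*, which bind fatty acids in the cytosol. They were taken from a list of names, and all 10 of 10 were measured, out of 19938 genes in the series. Subcutaneous adipose tissue (SAT) was taken from C57Bl6 mice aged 16 weeks. The groups were cKO-HFD and WT-HFD, fed a high fat diet (HFD, D12492), and cKO-CT and WT-CT, fed a control diet (CT, AIN93M). All 4 groups carried *loxP*-flanked *Napepld* alleles (NAPE PLD lox/lox), WT mice being littermates without Cre, and only cKO mice also carried AP2 Cre, a recombinase under the promoter of *Fabp4*, which is itself among the genes described. *Fabp4* is also expressed by macrophages, so its promoter does not mark adipocytes alone. The paper found no difference in *Napepld* expression between peritoneal macrophages of cKO and WT mice. In white fat it found a decrease in the adipocyte fraction and none in the stromal vascular cells. RNA of 4 to 5 mice was pooled per group and hybridized to 1 array, so 4 arrays were compared and variation among mice cannot be measured.

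Lipoprotein lipase, the product of *Lpl*, is secreted by adipocytes and muscle cells and splits triglycerides of chylomicrons and very low density lipoproteins in the capillary lumen. GPIHBP1 on endothelial cells carries it there, and ANGPTL4 inactivates it. The released fatty acids enter through CD36 and the transport proteins of the Slc27 family and are bound by cytosolic fatty acid binding proteins, of which FABP4 is the main form of the adipocyte, FABP5 is shared with macrophages and skin, and FABP3 is the form of heart, muscle and brown fat.

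Values are log2 levels per gene, and a log2 ratio is the difference of this level between 2 arrays. A gene is said to have risen or fallen where that difference reached 1.5-fold (0.58 on the log2 scale). No p-value can be had from a single array per group, and no difference has a replicate check. As a background, the 95th percentile of 1027 olfactory receptor (*Olfr*) genes lay between log2 levels of 5.28 and 5.50, and all 10 genes lay above it on every array. Adipocyte markers were high, with 7 of 8 measured and levels of 10.72 to 13.36. Their summed level was 15.51 on cKO-HFD, 15.37 on WT-HFD, 15.42 on cKO-CT and 15.23 on WT-CT, and the leptin gene *Lep* was the 1 marker that reached 1.5-fold in any comparison. Markers of other tissues differed between the arrays. The summed level of 17 skeletal muscle markers was 12.10 on cKO-HFD, 15.68 on WT-HFD, 14.11 on cKO-CT and 14.14 on WT-CT (log2 of the summed linear levels), and that of 10 pancreatic acinar markers was 8.90, 8.97, 8.78 and 10.78 on the same arrays. *Napepld* itself had log2 levels of 7.94 on cKO-HFD, 8.01 on WT-HFD, 7.78 on cKO-CT and 8.31 on WT-CT. Where its probe set lies relative to the deleted part is not known here.

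Over the 4 arrays, 7 of the 10 genes stayed within 1.5-fold, against 86.8% of all genes. *Gpihbp1* did so only just, with a range of 0.582 against a cut-off of 0.585. Of all 19938 genes, 11376 to 11989 lay above the *Olfr* background per array. Shares of all genes thus include many genes at lower levels than the 10. *Fabp3* fell in every comparison, *Fabp5* fell in WT-HFD over WT-CT and rose in cKO-HFD over WT-HFD, and *Angptl4* rose in WT-HFD over WT-CT. In bulk tissue, fewer cells of a type and less RNA per cell cannot be told apart.

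**Figure D1:**
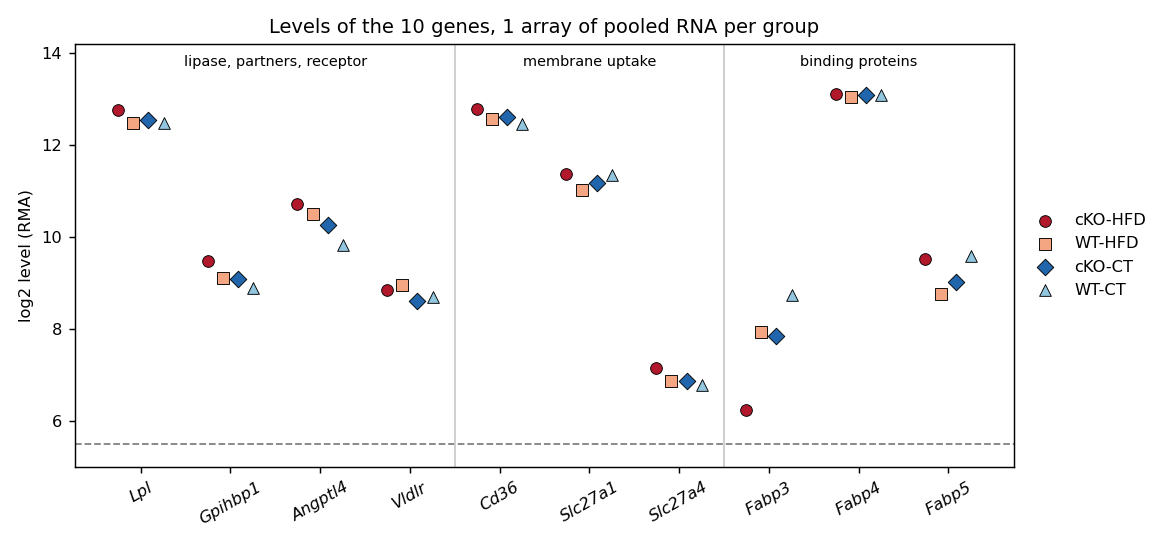
Log2 level (vertical axis) of the 10 genes, grouped by role, on the cKO-HFD, WT-HFD, cKO-CT and WT-CT arrays, with 1 point per array and no error bar. The dashed line is the highest of the 4 *Olfr* background levels (5.50). *Fabp3* spread from 6.24 on cKO-HFD to 8.75 on WT-CT, while *Fabp4* stayed between 13.04 and 13.11.

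*Lpl*, the lipase itself, had log2 levels of 12.76 on cKO-HFD, 12.47 on WT-HFD, 12.56 on cKO-CT and 12.47 on WT-CT. Its level was nearly the same on the WT-HFD and WT-CT arrays (log2 ratio 0.0015), and the cKO-HFD array was the highest, by 0.29 over WT-HFD. *Gpihbp1*, whose product anchors the lipase on capillary endothelium, had 9.47, 9.12, 9.09 and 8.89 on the same arrays. The ratios of *Gpihbp1* were 0.20 in cKO-CT over WT-CT and 0.36 in cKO-HFD over WT-HFD, both under 1.5-fold. Endothelial markers were higher by a similar or larger amount in both comparisons. Their median log2 ratio over 10 markers was 0.46 (CT) and 0.41 (HFD), with 10 of 10 and 9 of 10 above 0. With diet, *Gpihbp1* had 0.22 in WT-HFD over WT-CT and 0.39 in cKO-HFD over cKO-CT, where the endothelial medians were 0.29 and 0.20. The part of endothelium in the *Gpihbp1* values was not tested.

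*Angptl4*, which encodes the lipase inhibitor and is a target of PPAR receptors, had log2 levels of 10.73 on cKO-HFD, 10.51 on WT-HFD, 10.27 on cKO-CT and 9.83 on WT-CT. WT-CT was the lowest array and both HFD arrays lay above both CT arrays. *Angptl4* rose by 0.68 on the log2 scale in WT-HFD over WT-CT, a size that 3.98% of genes reached in either direction. In cKO-CT over WT-CT it was 1.36-fold higher (0.44) and in cKO-HFD over cKO-CT 1.37-fold (0.45), neither of which reached 1.5-fold. *Vldlr*, a receptor that binds triglyceride-rich lipoproteins beside the lipase, had 8.84, 8.97, 8.61 and 8.70. Its ratios to the CT array of the same genotype were 0.26 for WT-HFD and 0.23 for cKO-HFD, while its genotype ratios were -0.09 on CT and -0.13 on HFD.

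Among the membrane proteins, *Cd36*, the long-chain fatty acid translocase, had log2 levels of 12.80 on cKO-HFD, 12.57 on WT-HFD, 12.60 on cKO-CT and 12.45 on WT-CT. *Slc27a4* (FATP4) had 7.15, 6.87, 6.87 and 6.78 in the same order of arrays. *Slc27a1* (FATP1), a transporter that insulin brings to the adipocyte surface, had 11.36, 11.02, 11.19 and 11.36. *Slc27a1* was thus lowest on WT-HFD and equal on cKO-HFD and WT-CT to the second decimal, and no ratio of these 3 genes reached 1.5-fold. *Lpl*, *Gpihbp1*, *Angptl4*, *Cd36* and *Slc27a4* shared 1 order at its ends. All 5 were highest on cKO-HFD and lowest on WT-CT, an order that 12.1% of all genes had. *Lpl* belonged to it by 0.0015 on the log2 scale, and after cyclic loess scaling, where that ratio of WT-HFD over WT-CT was -0.04, 4 of the 10 genes had this order, against 11.7% of all genes. For 4 of these 5 the whole range was under 1.5-fold, for *Gpihbp1* only just (0.582, against a cut-off of 0.585). Summed adipocyte markers (15.51 on cKO-HFD, 15.23 on WT-CT) and endothelial markers (12.55 and 11.83) had the same ends. The other marker lists did not. The part of these cells in the values was not tested.

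**Figure D2:**
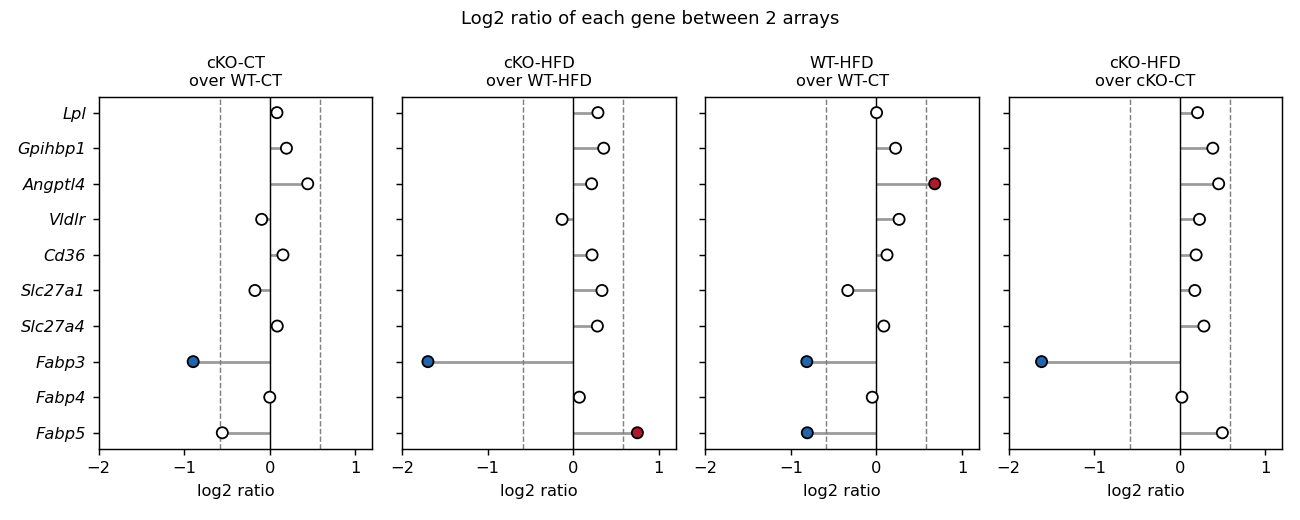
Log2 ratio (horizontal axis) of the 10 genes in cKO-CT over WT-CT, cKO-HFD over WT-HFD, WT-HFD over WT-CT and cKO-HFD over cKO-CT. Filled points reached 1.5-fold (dashed lines), red above and blue below 0. *Fabp3* is filled in all 4 panels, with ratios of -0.89, -1.70, -0.81 and -1.62.

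*Fabp3*, the heart and muscle type binding protein, which brown and beige fat also expresses, had log2 levels of 6.24 on cKO-HFD, 7.93 on WT-HFD, 7.85 on cKO-CT and 8.75 on WT-CT. WT-CT was the highest array, cKO-CT and WT-HFD were close to each other, and cKO-HFD was the lowest by a wide margin. *Fabp3* was 1.86-fold lower in cKO-CT over WT-CT and 3.24-fold lower in cKO-HFD over WT-HFD. With diet it was 1.76-fold lower in WT-HFD over WT-CT and 3.06-fold lower in cKO-HFD over cKO-CT. A ratio of this size in either direction was reached by 0.436% of genes in cKO-CT over WT-CT, 0.456% in cKO-HFD over WT-HFD, 2.45% for WT-HFD against WT-CT and 0.281% in cKO-HFD over cKO-CT. The study's own list of genes changed in cKO-CT, drawn from these arrays, holds *Fabp3*, so its fall there is not independent evidence.

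*Fabp3* was read by 2 probe sets that the annotation assigns to the same transcripts, and *Fabp5* likewise. The *Fabp3* probe sets gave ratios of -0.82 and -0.97 in cKO-CT over WT-CT and of -1.69 and -1.70 in cKO-HFD over WT-HFD. RefSeq (GRCm38.p6) places *Fabp3* on chromosome 4, from 130308738 to 130315463, and lists a pseudogene, *Fabp3-ps1*, on chromosome 10. RefSeq likewise lists a *Fabp5* pseudogene. Whether a probe set of either gene also reads such a copy is not known here. Of the 10 genes, 5 had entries in the RefSeq promoter table. Because *Fabp3* moved most, the 250 bases before its annotated start are shown, on the + strand at chr4:130308488-130308737 (GRCm38.p6), with an E-box (CANNTG, the motif of basic helix-loop-helix factors) in capitals.
*Fabp3* upstream: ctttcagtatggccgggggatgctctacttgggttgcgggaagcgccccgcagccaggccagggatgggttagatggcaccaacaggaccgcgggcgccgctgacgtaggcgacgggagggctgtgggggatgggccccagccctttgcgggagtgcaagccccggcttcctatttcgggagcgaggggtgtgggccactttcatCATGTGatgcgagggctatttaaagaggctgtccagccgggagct
A search of both strands found 1 E-box, no PPAR half-site (AGGTCA) and no TATA box (TATAAA). With a single match there was no overlap between motifs. Of 32851 windows of 250 bases before gene starts, 66.2% held an E-box, 14.0% AGGTCA and 12.4% TATAAA. A match is a description of letters and no evidence that a factor binds.

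Tissues that use *Fabp3* differed between the same arrays. Of 17 skeletal muscle markers, 17 fell in cKO-HFD over WT-HFD (median log2 ratio -3.94) and 13 fell in cKO-HFD over cKO-CT (-1.91), where *Fabp3* fell most. In the WT-HFD to WT-CT ratio, 13 muscle markers rose (median 1.68) and *Fabp3* fell. In cKO-CT over WT-CT, 4 muscle markers fell, with a median of -0.15, and *Fabp3* was lower by 0.89. Those 4 were *Mb* (myoglobin, -1.22), *Myh7* (-1.18), *Myh1* (-1.10) and *Myh2* (-0.68). *Mb*, which stores oxygen in oxidative fibres, had log2 levels of 6.54 on cKO-HFD, 8.43 on WT-HFD, 6.82 on cKO-CT and 8.04 on WT-CT.
The brown and beige markers followed another order than the muscle markers. Their sum was highest on WT-CT and lowest on cKO-HFD, as was *Fabp3*, while WT-HFD and cKO-CT were in the reverse order. Their summed level was 11.37 on cKO-HFD, 11.72 on WT-HFD, 12.75 on cKO-CT and 13.63 on WT-CT (log2 of the summed linear levels, 8 of 9 measured). Of these 8, 6 fell in cKO-CT over WT-CT (median -0.75), 7 in WT-HFD over WT-CT (-1.47) and 5 in cKO-HFD over cKO-CT (-1.49), while 1 rose and 1 fell in cKO-HFD over WT-HFD (0.07). The one that fell between the HFD arrays was *Cox7a1*, a cytochrome oxidase subunit of muscle and brown fat, and the one that rose was *Elovl3*, a fatty acid elongase that lay below the *Olfr* background on both HFD arrays. *Ucp1*, the defining marker of brown fat, had log2 levels of 6.74 on cKO-HFD, 7.10 on WT-HFD, 9.96 on cKO-CT and 11.52 on WT-CT. The part of muscle and of brown or beige fat in the *Fabp3* values was not tested.

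**Figure D3:**
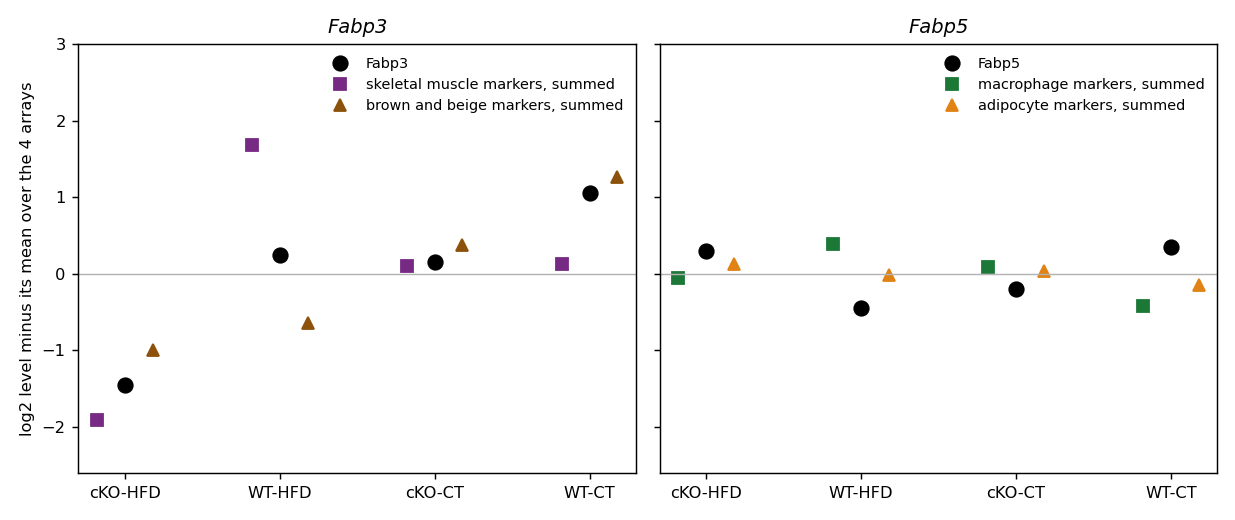
Log2 level minus its mean over the 4 arrays (vertical axis) on cKO-HFD, WT-HFD, cKO-CT and WT-CT for *Fabp3* with summed skeletal muscle and brown or beige markers (left), and for *Fabp5* with summed macrophage and adipocyte markers (right), 1 array per group. The muscle sum peaks on the WT-HFD array (15.68) and is smallest on cKO-HFD (12.10), whereas *Fabp3* is highest on WT-CT (8.75).

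*Fabp4*, the adipocyte binding protein whose promoter drives Cre in the cKO mice, had log2 levels of 13.11 on cKO-HFD, 13.04 on WT-HFD, 13.09 on cKO-CT and 13.09 on WT-CT. Its range of 0.07 was the smallest among the 10 genes, and the cKO-CT and WT-CT arrays differed by 0.00057 on the log2 scale.

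*Fabp5*, the epidermal type binding protein that adipocytes and macrophages also make, had log2 levels of 9.52 on cKO-HFD, 8.77 on WT-HFD, 9.03 on cKO-CT and 9.58 on WT-CT. The cKO-HFD and WT-CT arrays were both high, and the WT-HFD and cKO-CT arrays both low. *Fabp5* was 1.68-fold higher in cKO-HFD over WT-HFD (0.75) and 1.75-fold lower in WT-HFD over WT-CT (-0.81). In cKO-CT over WT-CT it was 1.47-fold lower (-0.55), just short of 1.5-fold, and after cyclic loess scaling it passed (-0.65). In cKO-HFD over cKO-CT it was 1.41-fold higher (0.50). Its probe sets gave 0.73 and 0.78 in cKO-HFD over WT-HFD and -0.56 and -0.54 in cKO-CT over WT-CT.
*Fabp5* lies on chromosome 3 from 10012585 to 10016610 (GRCm38.p6), 188 kb from the start of *Fabp4* at 10204342, and the neighbouring genes differed in their values. The markers of macrophages, which also make *Fabp5*, had a summed level of 12.22 on cKO-HFD, 12.66 on WT-HFD, 12.37 on cKO-CT and 11.86 on WT-CT (12 of 12 measured). Of these, 3 (*Adgre1*, *C1qc* and *Lyz2*) fell in cKO-HFD over WT-HFD (median -0.33) where *Fabp5* rose, and 8 rose in WT-HFD over WT-CT (0.73) where it fell. The WT-HFD array is in both of these comparisons, on opposite sides, so they are not separate observations. In cKO-CT over WT-CT the macrophage median was 0.50, with 12 of 12 above 0, and *Fabp5* was lower by 0.55. In cKO-HFD over cKO-CT the median was -0.11, with 9 of 12 below 0, and *Fabp5* was higher by 0.50. This second pair shares the cKO-CT array likewise. Of 7 keratinocyte markers, 2 lay above the *Olfr* background on cKO-HFD, WT-HFD and cKO-CT and 4 on WT-CT. *Lor* and *Krt10* reached 1.5-fold in cKO-HFD over cKO-CT, and *Lor* in cKO-HFD over WT-HFD, but *Lor* lay below that background on every array and *Krt10* on cKO-CT (5.16), so the size of these ratios is not resolved. The part of macrophages and keratinocytes in the *Fabp5* values was not tested.

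By comparison, none of the 10 genes rose in cKO-CT over WT-CT, against 1.64% of all genes. Over all genes, 327 were higher and 303 lower there as deposited, and 416 higher and 255 lower after each array was centred on its median, which left the calls among the 10 genes as they were. *Fabp3* alone fell there, against 1.52% of all genes. In cKO-HFD over WT-HFD, 1 of 10 rose (*Fabp5*), against 1.04%, and 1 fell (*Fabp3*), against 2.11%. In WT-HFD over WT-CT, 1 rose (*Angptl4*), against 3.16%, and 2 fell (*Fabp3* and *Fabp5*), against 2.67%. In cKO-HFD over cKO-CT, none rose, against 1.82%, and 1 fell (*Fabp3*), against 2.17%. The median log2 ratio of the 10 genes was 0.04 in cKO-CT over WT-CT, 0.25 in cKO-HFD over WT-HFD, 0.04 for WT-HFD over WT-CT and 0.22 in cKO-HFD over cKO-CT, where the median over all genes was -0.0050, 0.027, -0.0040 and 0.017. With 10 genes, each gene is a large share of the list, and these counts do not show that the list moved as a whole. Each array is in 2 of the 4 comparisons. The WT-HFD array is below the line in cKO-HFD over WT-HFD and above it in WT-HFD over WT-CT, so the rise of *Fabp5* in the one and its fall in the other share that array, and the cKO-CT array is shared likewise.

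The genotype ratios on the diets come from different arrays and can be set side by side. Their sign was the same on CT and HFD for 8 of the 10 genes, the exceptions being *Fabp5* and *Slc27a1*, and for 47.7% of all genes. *Fabp4* was among the 8 through a CT ratio of 0.00057, and after cyclic loess (-0.03 on CT and 0.10 on HFD) the count was 7 of 10, against 49.2% of all genes. The difference of the genotype ratios, HFD minus CT, was 1.31 for *Fabp5*, a size reached by 0.868% of all genes, and -0.80 for *Fabp3*, reached by 4.16%. For *Slc27a1* it was 0.51, and for the other 7 it lay between -0.23 and 0.21. These differences were not tested, as no array was repeated.

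**Figure D4:**
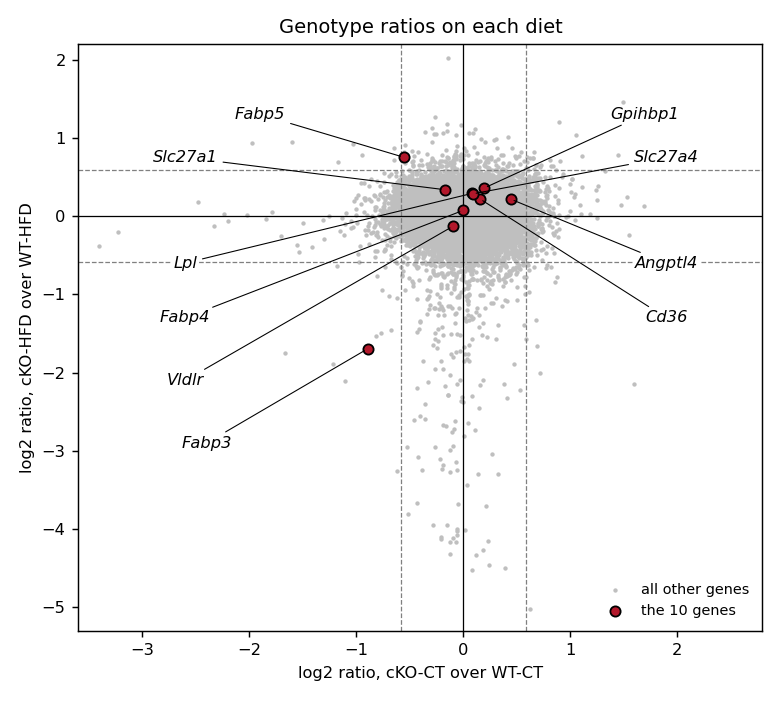
Log2 ratio of cKO-HFD over WT-HFD (vertical axis) against cKO-CT over WT-CT (horizontal axis) for all 19938 genes (grey) and the 10 genes (red, labelled), with 1.5-fold as dashed lines. *Fabp3* lies low on both axes (-0.89 and -1.70), and *Fabp5* lies on opposite sides of 0 (-0.55 and 0.75).

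The genes nearest in pattern were found by the root mean square difference of log2 levels, each centred on its own mean over the 4 arrays, among genes with a mean level of at least 7. For *Fabp3* these were *Cox7a1* (0.17) and *Gpx3*, a secreted glutathione peroxidase (0.38). *Cox7a1* had 8.26 on cKO-HFD, 9.78 on WT-HFD, 10.15 on cKO-CT and 10.96 on WT-CT. For *Fabp5* they were *Klb*, the co-receptor of FGF21 (0.087), and *Slc36a2*, an amino acid transporter of brown adipocytes (0.12). *Klb* had 8.48, 7.83, 8.01 and 8.40 on the same arrays. For *Angptl4* they were *Pea15a* (0.020) and *Lox*, which crosslinks collagen (0.030). For the 7 genes that stayed within 1.5-fold, the nearest genes differed by 0.0045 to 0.046. These were *Cd2ap* and *Bak1* for *Lpl*, *Mmd* and *Ifnz* for *Gpihbp1*, *Gda* and *Pusl1* for *Cd36*, *Slc35f6* and *Strn4* for *Fabp4*, *Romo1* and *Mir185* for *Slc27a1*, *Pigs* and *Fgf10* for *Slc27a4*, and *Rprl2* and *Psme4* for *Vldlr*. Likeness over 4 arrays is a description only.

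Some other genes of the pathway reached 1.5-fold. Of all genes, 1.64% rose and 1.52% fell in cKO-CT over WT-CT, and 1.04% and 2.11% in cKO-HFD over WT-HFD. The shares were 3.16% and 2.67% in WT-HFD over WT-CT, and 1.82% and 2.17% in cKO-HFD over cKO-CT. The lists below are short, so their counts do not show that a list moved as a whole. Of 15 measured genes that mature or control lipoprotein lipase, 1 rose in cKO-CT over WT-CT, and in WT-HFD over WT-CT 1 rose and 2 fell. None passed in cKO-HFD over WT-HFD or over cKO-CT. *Hspg2*, the basement membrane heparan sulfate proteoglycan, was the one that rose in both, with log2 levels of 10.84 on cKO-HFD, 10.34 on WT-HFD, 10.29 on cKO-CT and 9.48 on WT-CT. *Angptl8*, a relative of *Angptl4* that feeding induces, had 7.21, 7.04, 7.59 and 7.93 and fell by 0.88 in WT-HFD over WT-CT. *Apoc1*, an apolipoprotein that inhibits the lipase, fell by 0.59 there, with a ratio of 0.03 in cKO-CT over WT-CT.
Of 6 lipoprotein receptor genes, *Sorl1*, a sorting receptor related to the LDL receptor, fell in cKO-CT over WT-CT (-0.86), with the diet in WT (-2.03) and in cKO-HFD over cKO-CT (-0.70), and *Lsr* rose in cKO-HFD over cKO-CT (0.64). None passed in cKO-HFD over WT-HFD. *Scarb1*, the receptor of high density lipoproteins, had 8.91 on cKO-HFD, 8.38 on WT-HFD, 8.63 on cKO-CT and 8.35 on WT-CT, and *Lrp1*, a receptor of lipoprotein remnants, had 10.22, 10.45, 10.49 and 10.07.
Of 18 other genes of fatty acid transport and binding, 1 rose and 1 fell in each comparison but the last, and 2 rose and 1 fell in cKO-HFD over cKO-CT. *Slc27a2* (FATP2) had 5.16 on cKO-HFD and 5.25 on WT-HFD, both below the *Olfr* background, against 7.05 on cKO-CT and 7.94 on WT-CT, so only its fall by 0.89 in cKO-CT over WT-CT is resolved in size. *Got2*, a mitochondrial aminotransferase also described as a fatty acid binding protein of the plasma membrane, fell by 0.89 in cKO-HFD over WT-HFD. Those that rose were *Fabp1*, *Fabp2* and *Fabp6*, which lay below the *Olfr* background on every array. *Cavin1*, a coat protein of caveolae, had ratios of 0.40 in cKO-CT over WT-CT, 0.57 for WT-HFD against WT-CT, and 0.16 in cKO-HFD over WT-HFD.
Of 9 endothelial regulators, *Aplnr*, the apelin receptor, rose in cKO-CT (0.67) and in WT-HFD over WT-CT (0.62). *Apln*, its ligand, rose in cKO-HFD over cKO-CT (0.77), where *Vegfa* fell (-0.74). None passed in cKO-HFD over WT-HFD. *Meox2*, an endothelial transcription factor, had a ratio of 0.54 in cKO-CT over WT-CT.
Of 11 PPAR receptors and partners, 2 fell in cKO-CT over WT-CT, none passed in cKO-HFD over WT-HFD, 3 fell in WT-HFD over WT-CT and 2 fell in cKO-HFD over cKO-CT. *Ppara* had log2 levels of 6.31 on cKO-HFD, 6.55 on WT-HFD, 7.59 on cKO-CT and 8.50 on WT-CT, and the coactivator gene *Ppargc1b* had 6.49, 6.40, 7.12 and 7.78. *Ppargc1a* fell by 0.99 in WT-HFD over WT-CT. *Pparg*, the receptor that drives many of the 10 genes in adipocytes, had 10.63, 10.42, 10.85 and 10.79 and did not reach 1.5-fold.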

How the data were processed

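The values the authors deposited were on a log2 scale, 1 per probe set, from Affymetrix MoGene 1.0 ST arrays, and were made by RMA (background correction, quantile normalization, probe summary), with Affymetrix Expression Console named in the submitters' processing notes and the APT suite in the methods. Quantile normalization forces a common distribution, so shifts shared by most genes are not seen. No detection filter was applied here. The platform annotation gave 21789 of 35556 probe sets a single gene name, 1621 more than 1 name and 12146 no name. Gene levels were means over probe sets with 1 name. Log2 ratios of 2 arrays were counted at 1.5-fold, the size used in the study, with no test. The members and the 12 pathway and marker lists (130 of 137 symbols measured) were chosen with earlier results of these data known. Genes named are the 10 members, *Napepld*, up to 3 genes per pathway list with the largest ratio and a level of at least 7, the 2 nearest genes in pattern, and members of counts of 5 or fewer. The marker genes, *Pparg* among the PPAR genes, and the sequence shown were named after their values were seen. Alternatives were the highest probe set, median centring, cyclic loess (span 0.7, 3 iterations), filters on level and a 2-fold size. The steps were tested on simulated data. Python 3.11.15, numpy 2.4.6, pandas 2.3.3, matplotlib 3.10.9, R 4.3.3 and limma 3.58.1 were used. The number of arrays limits the precision.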

Additional observations from a re-analysis of the deposited data

Results flagged for a closer look

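Among the 10 genes, and among the pathway genes named where either ratio reached 1.5-fold, 7 had genotype ratios on the diets or diet ratios in the genotypes of opposite sign. Opposite signs were common. Genotype ratios had 1 sign on both diets for 47.7% of all genes and for 8 of the 10. Diet ratios had 1 sign in both genotypes for 52% of all genes and for 7 of the 10. None of the differences was tested. For *Fabp5* both kinds of ratio had opposite signs, with a difference of genotype ratios (HFD minus CT) of 1.31 on the log2 scale. For *Slc27a1* both had opposite signs, with a difference of 0.51. For *Fabp4* the diet ratios were 0.02 in cKO and -0.05 in WT, with a difference of 0.073, and after median centring they had the same sign (-0.0026 in cKO and -0.05 in WT). For *Sorl1* the genotype ratios were 0.47 on HFD and -0.86 on CT, with a difference of 1.33. For *Ppargc1b* they were 0.09 on HFD and -0.65 on CT, with a difference of 0.74. *Fabp2* (genotype ratios of 1.17 on HFD and -0.02 on CT, difference 1.19) and *Fabp6* (diet ratios of 0.62 in cKO and -0.13 in WT, difference 0.75) lay below the *Olfr* background on every array, so these sizes are not resolved.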

How the results depend on the processing

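The count of members at 1.5-fold in cKO-CT over WT-CT was 1 as deposited, 2 after cyclic loess, where *Fabp5* joined *Fabp3*, and 0 at 2-fold. In WT-HFD over WT-CT it was 3, and 0 at 2-fold. In cKO-HFD over WT-HFD it was 2, and 1 at 2-fold (*Fabp3*). In cKO-HFD over cKO-CT it was 1 under every alternative run. The other 20 of 24 counts under an alternative stayed within 1.5 times, while no replicate spread exists to judge the size of a move in the single ratios or medians. The member median ranged over the alternatives between -0.00062 and 0.071 in cKO-CT over WT-CT, 0.22 and 0.26 in cKO-HFD over WT-HFD, 0.0015 and 0.044 in WT-HFD over WT-CT, and 0.19 and 0.25 in cKO-HFD over cKO-CT. Counts over all genes depended on level. Among 5362 genes with a mean level of at least 7 (*Slc27a4* drops out), cKO-CT against WT-CT gave 188 higher and 42 lower genes, where no filter gave 327 and 303, and 48 and 170 in cKO-HFD over WT-HFD, against 207 and 420. In the diet comparisons they were 320 and 269 in WT, against 631 and 532, and 52 and 218 in cKO, against 362 and 432. At 2-fold, all genes gave 24 higher and 37 lower genes for cKO-CT against WT-CT, 18 and 181 in cKO-HFD over WT-HFD, 163 and 129 with diet in WT and 37 and 112 with diet in cKO. Above the *Olfr* background, lower calls in cKO-CT over WT-CT were 159, and higher calls were 115 in cKO-HFD over WT-HFD and 162 with diet in cKO. No paired analysis was possible because each group has 1 array and the labels give the groups no shared replicate numbers. No array could be left out, because each group has 1.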
